A study of Homo sapiens with 3 samples.

Results

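The small RNA silencing machinery was described in NCI-H209 cells through 10 listed genes that make or use hairpin-derived small RNAs: DROSHA, DGCR8, XPO5, DICER1, TARBP2, AGO1, AGO2, AGO3, AGO4 and TNRC6A. They are 10 of the 60609 genes in the deposited tables, were taken by name and matched by gene identifier, and all 10 passed the filter on low counts and averaged at least 5 CPM (counts scaled to the size of the library). NCI-H209 is an established cell line grown from a human small cell lung cancer, with neuroendocrine features. The 3 libraries were sh490 and sh1362, which carry different hairpins against the Src-family kinase YES1, and shGFP, the control, whose hairpin is directed at GFP, a gene absent from human cells. All 3 cell populations had been infected with lentivirus of the doxycycline-inducible vector Tet-pLKO-puro. Per the labels' protocols, YES1 depletion was induced with 1 µg/mL of doxycycline every 2 days, and the same doxycycline treatment is listed for shGFP. There was 1 library per hairpin, and nothing in the labels ties the libraries to separate cultures. The p-values below therefore rest only on how far the 2 hairpin libraries spread, with the spread of each gene moderated across genes. That spread joins any technical difference with any difference between the 2 hairpins, and these cannot be told apart.

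In cells, a long primary transcript with a hairpin is cut in the nucleus by the Microprocessor, a complex of the nuclease DROSHA and its RNA-binding partner DGCR8. Exportin-5, encoded by XPO5, carries the short hairpin to the cytoplasm, where DICER1 with its partner TARBP2 cuts off the loop and an Argonaute protein (AGO1 to AGO4) takes up a strand. TNRC6A, a GW182 protein, then links the Argonaute to the enzymes that deadenylate and decap the target; AGO2 is the human Argonaute best known for slicing a fully matched target. A short hairpin RNA made from a vector enters this route after the DROSHA step, so all the hairpins used here, the control hairpin included, draw on XPO5, DICER1 and the Argonautes. The libraries measure polyadenylated RNA and hold no values for mature small RNAs or proteins.

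Some members carry natural hairpins in their own genes, and these sequences are shown because transcripts of the machinery can in this way be cut by the machinery itself. The DGCR8 gene holds MIR3618 and MIR1306 on its own strand, both inside exons of the deposited gene model, and the DICER1 gene holds MIR3173 inside an intron. In the DICER1 hairpin below the capitals mark the mature arms, and in the mature miRNAs they mark the seed, bases 2 to 8, which pairs with targets. The sequences are those of RefSeq (GRCh38.p14), given 5′ to 3′.
MIR3173 hairpin in DICER1, chr14:95137919-95137986, minus strand: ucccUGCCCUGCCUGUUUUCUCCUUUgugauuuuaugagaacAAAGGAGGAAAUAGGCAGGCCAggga
hsa-miR-3618 in DGCR8, chr22:20085797-20085818, plus strand: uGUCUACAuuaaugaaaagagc
hsa-miR-1306-5p in DGCR8, chr22:20086072-20086093, plus strand: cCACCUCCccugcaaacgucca
hsa-miR-1306-3p in DGCR8, chr22:20086112-20086129, plus strand: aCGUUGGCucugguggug
The 5 mature miRNAs of these genes all have different seeds. The genes MIR3173 and MIR3618 were listed with 0 counts in all 3 libraries, and reads that overlap both a miRNA gene and DGCR8 were left out by the authors' counting, so the values of DGCR8 come from the rest of its exons.

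Total counts were 7791747 in sh490, 7421552 in sh1362 and 4899006 in shGFP, so shGFP was the shallowest. YES1, the target, had 163 and 216 counts with sh490 and sh1362, against 1465 with shGFP, which is 0.0679 and 0.0966 times the control level after normalisation. All 9 neuroendocrine marker genes averaged at least 5 CPM, and they summed to 3705 CPM in sh490 and 4609 CPM in sh1362, against 3243 CPM in shGFP. Relative to shGFP their log2 folds had medians of 0.07 (sh490) and 0.53 (sh1362). Mitochondrial genes took 5.5% of the counts in sh490 and 7.8% in sh1362, against 5.5% in shGFP. The 5 red cell markers summed to 18.7 CPM in sh490 and 20.4 CPM in sh1362, against 734 CPM in shGFP. Of these 5, 3 averaged at least 5 CPM and 1 was at 0 in all libraries. The 5 leukocyte markers summed to 0.252 and 1.62 CPM, against 6.20 CPM in shGFP, with CD3E at 0. Of the 4 fibroblast markers, which summed to 9.08 and 6.63 CPM, against 7.44 CPM in shGFP, DCN was at 0. The part of these transcripts in the values below was not tested; scaling without globin and mitochondrial genes left each member's value within its counting interval. A bulk library cannot tell fewer cells expressing a gene from less RNA per cell.

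All 10 genes were expressed in every library. AGO2 was the member that differed most between sh1362 and shGFP and between the hairpin libraries, lying higher in sh490 and lower in sh1362 than in shGFP. It had 1592 counts in sh490 and 629 in sh1362, against 779 in shGFP, which is 201 and 85.2 CPM, against 161 CPM. DICER1 was lower with both YES1 hairpins, at 154 and 184 CPM, against 218 CPM in shGFP. With sh490 it was the member farthest from shGFP, at a log2 fold of -0.49, where AGO2 had 0.32. AGO1, AGO3, XPO5, TNRC6A, DGCR8 and TARBP2 lay above shGFP with both hairpins, by ratios between 1.01 and 1.36. The lowest of these ratios, that of TARBP2 with sh1362, was nearly level, and several of their counting intervals, given below, include 1. DROSHA lay below shGFP with both. AGO4 was nearly level, and its side of shGFP turned with the scaling.

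**Figure D1:**
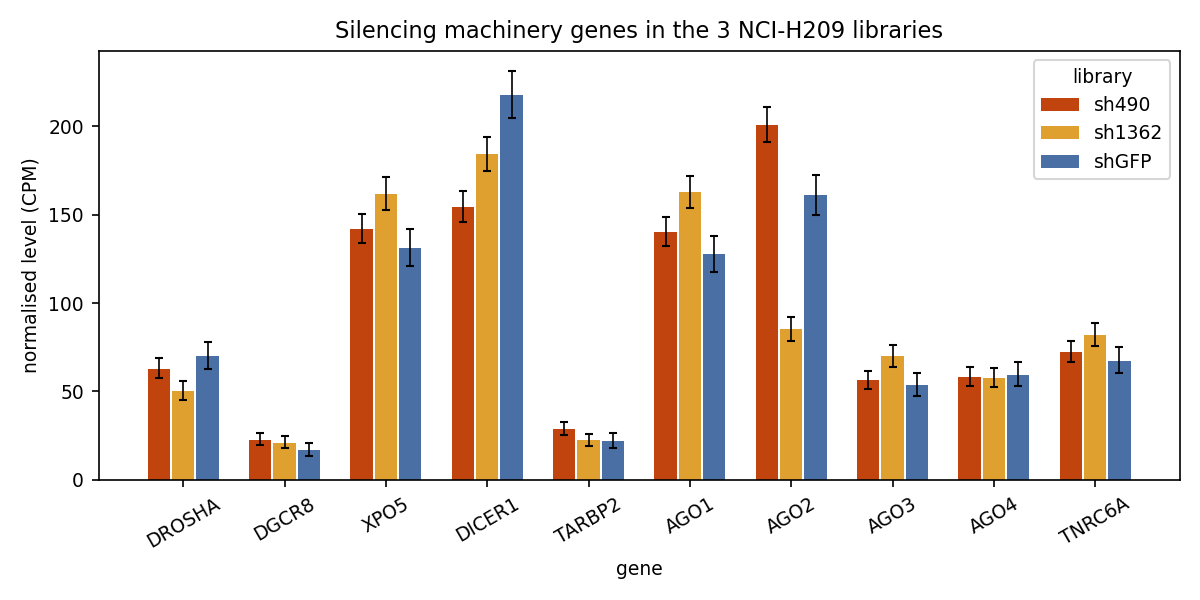
Normalised level in CPM of each member in sh490, sh1362 and shGFP; each bar is 1 library and each whisker its exact 95% counting interval. AGO2 stands at 201 CPM in sh490 and 85.2 CPM in sh1362, against 161 CPM in shGFP, and DICER1 is lower in both YES1 hairpin libraries than in shGFP.

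To ask whether silencing YES1 went with a change in this machinery, both hairpin libraries were compared with shGFP by the edgeR quasi-likelihood test over all genes. A Benjamini-Hochberg adjusted p under 0.05 was reached by 0.0255% of the 15708 genes tested, all of them lower. These were YES1, the target, and 3 of the 5 red cell markers given above, which were high in shGFP. None of the 10 members passed. None reached an unadjusted p under 0.05 either, where 4.35% of all genes did, and DESeq2 and limma-voom also called 0 members. The members' adjusted p in the edgeR fit lay between 0.986 and 0.998. The intervals were wide: the 95% interval of the log2 fold was -0.39 to 0.88 for AGO1 and -1.28 to 0.94 for AGO2, so differences within these bounds could not be told from none with 3 libraries. Only the 2 hairpin libraries share a group, so this test rests on 1 residual degree of freedom moderated across genes.

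Between single libraries the values have no replicate check, and they are given as ratios of normalised counts with exact 95% counting intervals. Such intervals cover counting error only, since the reads carry no molecular identifiers and may repeat a molecule. They lay wholly above or wholly below 1 for 4 of 10 members with sh490, where 42.7% of the 11634 genes averaging at least 5 CPM did, and for 7 of 10 with sh1362, where 55.9% did. By size, using log2 CPM with a prior count of 2, 0 of 10 members lay at least 1.5-fold from shGFP with sh490 (13.3% of all genes) and 1 of 10 with sh1362 (26.7%). None lay at least 2-fold from shGFP with either hairpin, where 2.82% and 9.29% of genes did.

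The members' median log2 fold was 0.11 with sh490, where the median of all genes was 0.00, and 0.15 with sh1362, where it was -0.01. The middle 50% of all genes lay between -0.22 and 0.24 with sh490 and between -0.35 and 0.31 with sh1362. Both folds share the shGFP library. Of the 10 members 6 lay higher with both hairpins, as 33.8% of all genes did, 3 lower with both (34.4%) and 1, AGO2, opposite (31.8%). The 3 lower include AGO4, whose log2 folds of -0.03 (sh490) and -0.05 (sh1362) were 0.02 and -0.03 when scaled by library totals, and 0.01 and 0.000196 by totals without mitochondrial and globin genes.

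**Figure D2:**
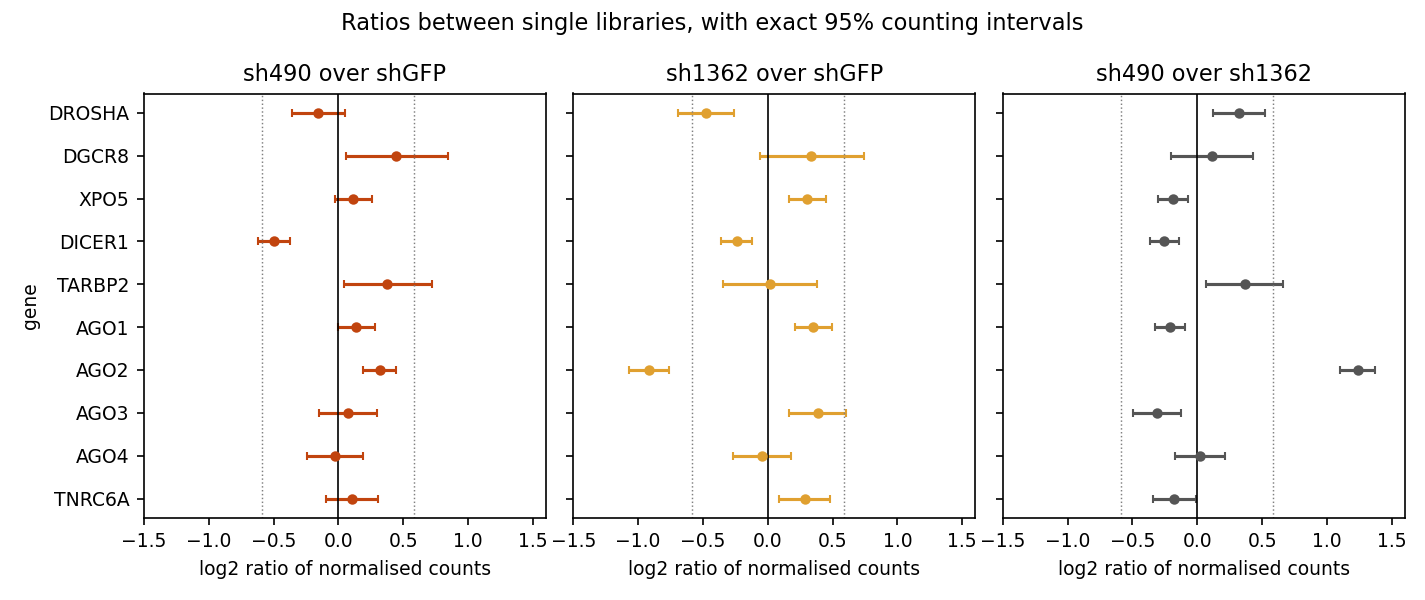
Log2 ratio of normalised counts for each member in sh490 over shGFP, sh1362 over shGFP and sh490 over sh1362, with exact 95% counting intervals; dotted lines mark 1.5-fold. AGO2 is the only member beyond a dotted line, lower in sh1362 than in shGFP and higher in sh490 than in sh1362.

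The nuclear cutting step was represented by DROSHA, its nuclease, and DGCR8, the partner that recognises the hairpin. DROSHA (ENSG00000113360.16, chromosome 5, 31400497 to 31532196, minus strand, GRCh38 as in the tables) had 499 counts in sh490 and 372 in sh1362, against 339 in shGFP. That is 62.9 and 50.4 CPM, against 70.1 CPM. It was lower in both, at 0.898 times shGFP with sh490 (0.781 to 1.03) and 0.719 times with sh1362 (0.619 to 0.835), and the interval of sh490 includes 1. The edgeR log2 fold was -0.31 (standard error, SE, 0.30; adjusted p 0.986).

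DGCR8 (ENSG00000128191.16, chromosome 22, 20080232 to 20111877, plus strand) had 181 counts in sh490 and 156 in sh1362, against 81 in shGFP, which is 22.8 and 21.1 CPM, against 16.7 CPM. It was the member with the fewest counts, and it lay on the other side of shGFP from DROSHA. Its ratio was 1.36 with sh490 (1.04 to 1.79) and 1.26 with sh1362 (0.958 to 1.67), and its edgeR log2 fold was 0.39 (SE 0.36, adjusted p 0.986). Per kilobase of exon, DROSHA exceeded DGCR8 by 2.59 times in sh490 and 2.24 times in sh1362, against 3.94 times in shGFP. Other genes share 9.58% of the exon bases of DGCR8, among them the neighbour TRMT2A, the largest such share of the 10 members, and reads there were not counted for either gene.

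XPO5 encodes the export receptor for short hairpins, a step that abundant vector hairpins are known to saturate in mice. The gene (ENSG00000124571.18, chromosome 6, 43522334 to 43576038, minus strand) had 1126 counts in sh490 and 1195 in sh1362, against 634 in shGFP. The levels of 142 and 162 CPM, against 131 CPM, put both hairpin libraries above the control. The ratio was 1.08 with sh490 (0.982 to 1.20) and 1.23 with sh1362 (1.12 to 1.36), and the edgeR log2 fold was 0.21 (SE 0.27, adjusted p 0.986). XPO5 shares 4.10% of its exon bases with POLR1C.

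DICER1, the nuclease that cuts off the loop, was lower with both hairpins. It (ENSG00000100697.14, chromosome 14, 95086228 to 95158010, minus strand) had 1224 counts in sh490 and 1360 in sh1362, against 1053 in the shallower shGFP. The ratio was 0.709 with sh490 (0.653 to 0.771) and 0.846 with sh1362 (0.780 to 0.918). Both intervals lie below 1, yet 9.0% of all genes had a log2 fold as low or lower with sh490 and 31.8% with sh1362. The edgeR log2 fold was -0.36 (SE 0.27), with a 95% interval of -0.99 to 0.26 and an adjusted p of 0.986.

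TARBP2, the double-stranded RNA-binding partner of DICER1, was higher with sh490 and near the control level with sh1362. The gene (ENSG00000139546.11, chromosome 12, 53500921 to 53506431, plus strand) had 228 counts in sh490 and 165 in sh1362, against 107 in shGFP. These are 28.8 and 22.3 CPM, against 22.1 CPM, so sh490 stood above the other libraries. The ratio was 1.30 with sh490 (1.03 to 1.65) and 1.01 with sh1362 (0.787 to 1.30), and the edgeR log2 fold was 0.21 (SE 0.36, adjusted p 0.986). Per kilobase, DICER1 exceeded TARBP2 by 1.79 times in sh490 and 2.74 times in sh1362, against 3.27 times in shGFP.

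The Argonautes bind the mature small RNA. AGO1, AGO3 and AGO4 lie side by side on the plus strand of chromosome 1, in the order AGO4 (35808016 to 35857890), AGO1 (35869808 to 35930532) and AGO3 (35930718 to 36072500), while AGO2 lies alone on the minus strand of chromosome 8 (140520156 to 140635633). No word of 50 bases in the GENCODE version 29 transcripts of any of the 4 was found in those of another, on either strand, so reads of that length would be placed apart; the read length is not given in the sources used here. Of the words of AGO1, 2.50% occurred in 1 other gene, AL139286.2, and of those of AGO2 none in any other gene. In the deposited gene models, 2.85% of the exon bases of AGO1 are shared with another gene. Of the words of AGO3, 1.86% occurred elsewhere, over 393 other genes, and of those of AGO4 0.34%, over 102.

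AGO2 (ENSG00000123908.12) lay at 1.25 times the shGFP level with sh490 (1.14 to 1.36) and at 0.529 times with sh1362 (0.475 to 0.588). Its log2 fold with sh1362, -0.92, made it the only member at least 1.5-fold from shGFP, and 15.2% of all genes were that far lower. The hairpin libraries stood 2.36 times apart (2.15 to 2.59). AGO2 was the only member at least 1.5-fold apart between them, where 20.4% of genes were, and at least 2-fold apart, where 5.9% were. The hairpin libraries lay on opposite sides of the control, so that their mean was 143 ± 81.8 CPM (SD between the different hairpins, n = 2), against 161 CPM in shGFP. The edgeR log2 fold was -0.17 (SE 0.47, adjusted p 0.993).

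AGO1 (ENSG00000092847.12) had 1114 counts in sh490 and 1201 in sh1362, against 617 in shGFP, that is 141 and 163 CPM, against 128 CPM. It was higher with both hairpins, at 1.10 times (0.997 to 1.22) and 1.27 times (1.16 to 1.41) the control level. AGO3 (ENSG00000126070.20) followed the same order, with 447 and 516 counts, against 259 in shGFP, and ratios of 1.05 (0.902 to 1.23) and 1.30 (1.12 to 1.52). AGO4 (ENSG00000134698.11) was nearly level across the libraries, with 463 and 426 counts, against 288, or 58.4 and 57.7 CPM, against 59.5 CPM. Its ratios were 0.981 (0.845 to 1.14) and 0.969 (0.832 to 1.13), and the edgeR log2 fold was -0.04 with a 95% interval of -0.69 to 0.62 (adjusted p 0.998). The edgeR adjusted p was 0.986 for both AGO1 and AGO3, with log2 folds of 0.25 and 0.24.

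Summed per kilobase of exon, the Argonaute transcripts came to 33.3 CPM per kilobase in sh490 and 28.2 in sh1362, against 29.9 in shGFP. AGO2 made up 38.0% of that sum in sh490 and 19.1% in sh1362, against 34.0% in shGFP. AGO1 made up 30.4% and 41.6%, against 30.7%, so in sh1362 it was the leading Argonaute transcript. AGO2 stood at 1.25 times AGO1 in sh490 and at 0.459 times in sh1362, against 1.11 times in shGFP. AGO4 held 23.6% and 27.6%, against 26.8%, and AGO3 the smallest share in each library. The shares depend on the exon length used, which is 21153 bases for AGO3 and 7423 for AGO4. By CPM without length, AGO3 stood above AGO4 in sh1362 (69.9 against 57.7 CPM) and below it in sh490 and shGFP.

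**Figure D3:**
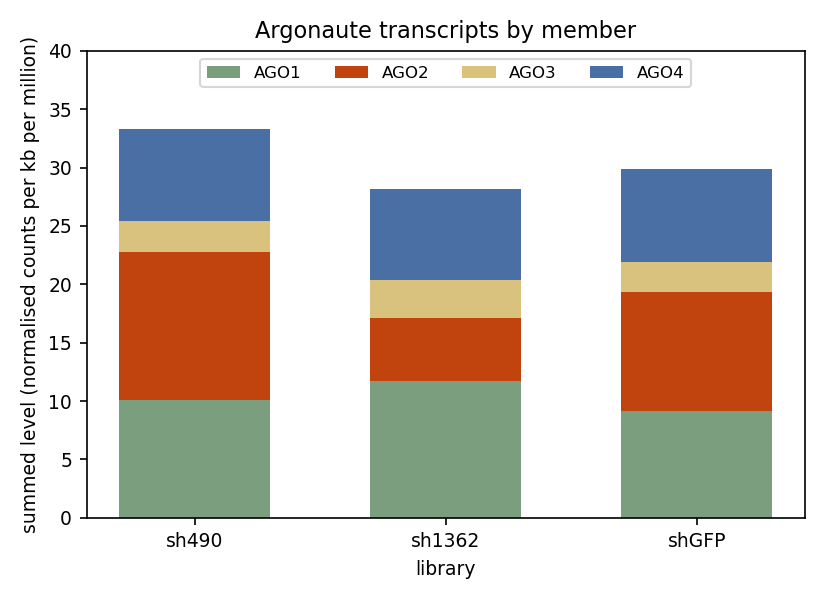
Level per kilobase of exon of AGO1 to AGO4, stacked, in sh490, sh1362 and shGFP; each bar is 1 library. The sums are 33.3, 28.2 and 29.9 CPM per kilobase, and the AGO2 part is 38.0% in sh490, 19.1% in sh1362 and 34.0% in shGFP.

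TNRC6A, the scaffold between Argonaute and the deadenylases, had 575 counts in sh490 and 606 in sh1362, against 326 in shGFP. The gene (ENSG00000090905.19, chromosome 16, 24610209 to 24827632, plus strand) was slightly higher with both hairpins, at 1.08 times (0.938 to 1.24) and 1.22 times (1.06 to 1.40) the control. Its edgeR log2 fold was 0.20 (SE 0.29, adjusted p 0.986).

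The level of each member within the line was compared per kilobase of the exon length in the tables, which joins the exons of all annotated transcripts and so understates genes with long exons that the line does not use. XPO5 led in both hairpin libraries. In sh490 it stood at 16.7 CPM per kilobase, followed by AGO2 at 12.7, DICER1 at 12.6, AGO1 at 10.1, DROSHA at 8.09, AGO4 at 7.87, TARBP2 at 7.03, TNRC6A at 5.59, DGCR8 at 3.12 and AGO3 at 2.67. In sh1362 the order was XPO5 at 19.1, DICER1 at 15.0, AGO1 at 11.7, AGO4 at 7.77, DROSHA at 6.47, TNRC6A at 6.33, TARBP2 at 5.46, AGO2 at 5.37, AGO3 at 3.30 and DGCR8 at 2.89. In sh490 the neighbours with overlapping counting intervals were AGO2 with DICER1, each next pair from DROSHA to TARBP2, and DGCR8 with AGO3. In sh1362 they were each next pair from AGO4 to AGO2, and AGO3 with DGCR8. The ends of that sh1362 run did not overlap, with AGO4 at 7.05 to 8.54 and AGO2 at 4.96 to 5.81. In shGFP the order ran from DICER1 at 17.7 and XPO5 at 15.5, through AGO2 at 10.2, AGO1 at 9.18, DROSHA at 9.01, AGO4 at 8.02, TARBP2 at 5.41 and TNRC6A at 5.20, to AGO3 at 2.53 and DGCR8 at 2.29. There DICER1 with XPO5, the run from AGO2 to AGO4, TARBP2 with TNRC6A, and AGO3 with DGCR8 had overlapping intervals. Among genes averaging at least 5 CPM, the levels in shGFP stood between the 18.0 percentile for DGCR8 and the 76.6 percentile for DICER1. AGO2 was the second of the 10 in sh490, the eighth in sh1362 and the third in shGFP.

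Other genes of the pathway were read from lists drawn up by function, with earlier results of these data known. In either direction, 0 of the 112 list genes tested passed the edgeR test. Most genes named from each list were picked for their folds, by the rule given with the processing. Of the 14 Microprocessor and nuclear cofactors, all tested, 8 lay higher with both hairpins, 3 lower and 3 opposite, with median log2 folds of 0.13 (sh490) and 0.12 (sh1362). KHSRP, which binds terminal loops and aids processing of some precursors, stood out of its list by size. It had 1207 counts in sh490 and 1121 in sh1362, against 340 in shGFP, or ratios of 2.17 (1.92 to 2.45) and 2.16 (1.91 to 2.45). The edgeR log2 fold was 1.11 (SE 0.28, adjusted p 0.986). At least 2-fold higher were 1.4% of all genes with sh490 and 3.29% with sh1362. NCBP2, a subunit of the nuclear cap-binding complex, had log2 folds of 0.36 and 0.41, and the splicing factor SRSF3 had 0.19 and 0.28. HNRNPA2B1 had the highest level of the list per kilobase, 206 and 186 CPM per kilobase, against 231 in shGFP.

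Of the 7 genes around nuclear export, 3 lay higher with both hairpins, 2 lower and 2 opposite, with medians of -0.01 and 0.14. RAN, the GTPase whose bound form exportin-5 needs, had log2 folds of 0.07 and 0.15, and the nuclear pore gene RANBP2 0.11 and 0.27. NUP153, also a pore protein, had 1107 counts in sh490 and 533 in sh1362, against 816, and log2 folds of -0.27 and -1.22. XPO1, the export receptor for proteins, had -0.20 and -0.58.

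Among 20 dicing and loading cofactors, 19 averaged at least 5 CPM, and 7 of these lay higher with both hairpins, 8 lower and 4 opposite, with medians of 0.05 and -0.09. The importin IPO8, which binds Argonautes, had 4170 counts in sh490 and 2843 in sh1362, against 3484 in shGFP, with log2 folds of -0.45 and -0.90. LIMD1, a LIM-domain protein of the silencing complex, had -0.96 and -0.62 on 40 and 48 counts, against 49. The chaperone partners DNAJA1 and DNAJA2 lay on opposite sides, at 0.25 and 0.40 for DNAJA1 and -0.35 and -0.22 for DNAJA2. HSP90AB1, a chaperone used in loading, had the highest level of the list, 867 and 912 CPM per kilobase, against 840.

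Of 29 silencing effectors, 28 averaged at least 5 CPM, 10 of them higher with both hairpins, 12 lower and 6 opposite, with medians of 0.01 and -0.12. TNRC6C, a relative of TNRC6A, had 151 and 149 counts, against 65, and log2 folds of 0.49 and 0.58. TOB1, which recruits the deadenylase, had 0.49 and 0.61. CNOT1, the scaffold of the deadenylase complex, had 2420 counts in sh490 and 1566 in sh1362, against 1966, with log2 folds of -0.41 and -0.94. The decapping cofactor DCP1A had -0.35 and -0.46. PABPC1, the cytoplasmic poly(A)-binding protein, led the list with 381 and 484 CPM per kilobase, against 379.

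In the list of 13 tailing, decay and let-7 genes, 11 averaged at least 5 CPM, of which 3 lay higher with both hairpins, 6 lower and 2 opposite, with medians of -0.03 and -0.09. LIN28B, which blocks processing of let-7 precursors, had 95 counts in sh490 and 56 in sh1362, against 114 in shGFP. Its ratios were 0.508 (0.383 to 0.673) and 0.322 (0.229 to 0.447), and the edgeR log2 fold was -1.27 (SE 0.42, adjusted p 0.986). LIN28A had 0 and 0 counts, against 2, and TRIM71 was at 0 in all libraries. PARN, a deadenylase, had log2 folds of 0.21 and 0.28, the nuclease XRN2 -0.10 and -0.09, and DIS3L2, which degrades tailed let-7 precursors, 0.36 and 0.06.

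Of the 12 PIWI-clade and piRNA genes, 3 averaged at least 5 CPM. Of these, HENMT1, a small RNA methyltransferase, stood at 32.2 and 47.3 CPM, against 28.3 CPM in shGFP, with log2 folds of 0.18 and 0.73 and PLD6 -0.03 and -0.19, while PIWIL3, TDRD1 and ASZ1 were at 0 in all libraries. Of 12 genes for enzymes linked to the modification of Argonautes or their partners, 11 averaged at least 5 CPM, 4 higher with both hairpins, 4 lower and 3 opposite, with medians of -0.09 and 0.16. EGFR, a receptor kinase that phosphorylates AGO2, had 254 counts in sh490 and 198 in sh1362, against 247, and log2 folds of -0.67 and -0.92. The ubiquitin ligases FBXW7 and TRIM65 had -0.38 and -0.41, and 0.53 and 0.46. MAPKAPK2, a kinase of AGO2, had 0.28 and 0.48. P4HB, a subunit of the prolyl hydroxylase that acts on AGO2, had the highest level, 90.8 and 136 CPM per kilobase, against 109.

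**Figure D4:**
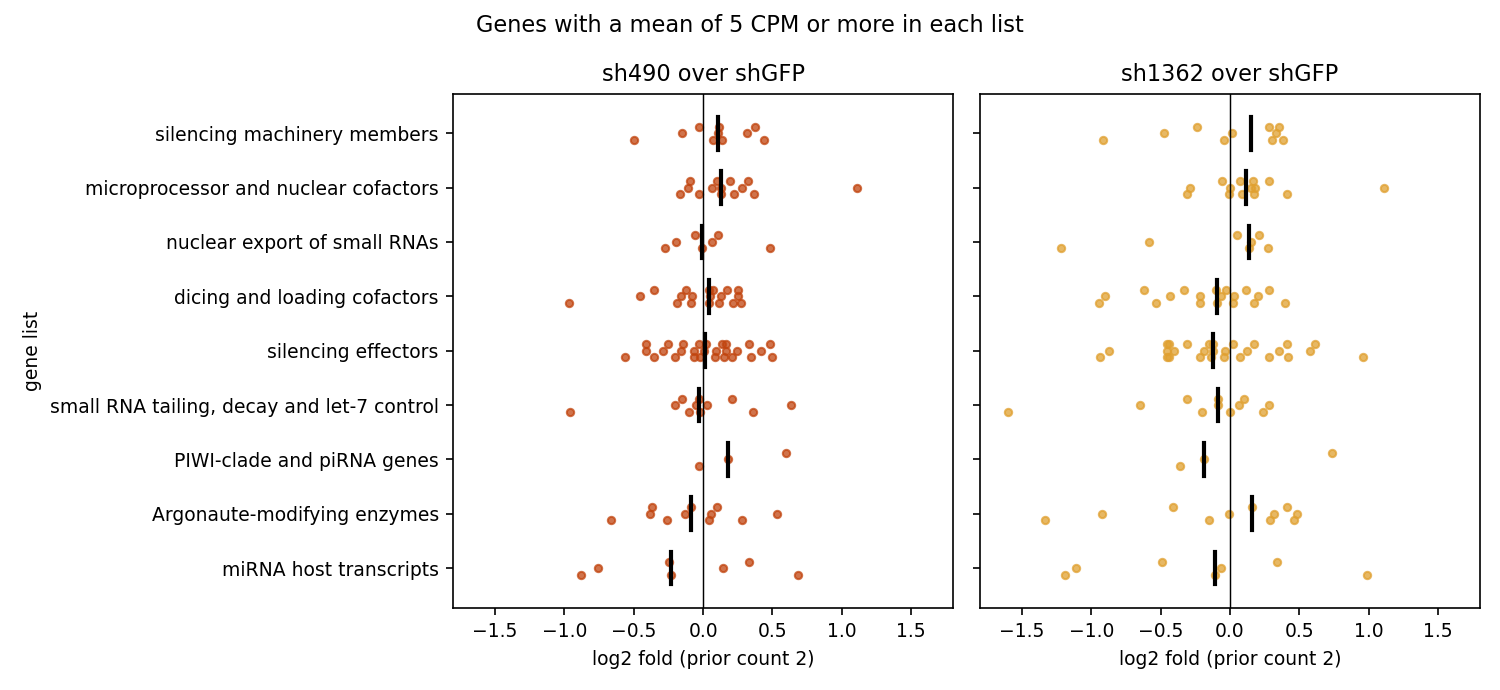
Log2 folds, with a prior count of 2, of the genes averaging at least 5 CPM in each list, in sh490 over shGFP and sh1362 over shGFP; each point is a gene and each black bar the list's median. Medians lie between -0.23 and 0.18, and KHSRP, LIN28B and NUP153 are among the points farthest out.

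Host transcripts of miRNAs are the substrates of the first step, and 7 of the 20 listed averaged at least 5 CPM, 2 higher with both hairpins, 4 lower and 1 opposite. The mature miRNAs that 4 of them carry are shown with the seed in capitals, because the host RNA was measured and the miRNA was not.
hsa-miR-9-5p, in MIR9-3HG: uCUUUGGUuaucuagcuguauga
hsa-miR-22-3p, in MIR22HG: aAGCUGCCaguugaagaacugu
hsa-miR-34a-5p, in MIR34AHG: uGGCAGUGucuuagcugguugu
hsa-miR-4435, in MIR4435-2HG: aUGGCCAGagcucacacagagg
MIR22HG had 107 counts in sh490 and 123 in sh1362, against 40 in shGFP, with ratios of 1.63 (1.13 to 2.41) and 2.01 (1.40 to 2.95) and an edgeR adjusted p of 0.986. MIR9-3HG had 38 and 30 counts, against 44, with ratios of 0.527 (0.332 to 0.832) and 0.447 (0.271 to 0.726). MIR34AHG had 46 and 43 counts, against 22, and MIR4435-2HG 145 and 69, against 105. The miR-9, miR-22 and miR-34a sequences overlap exons of their hosts and the miR-4435 sequence lies in an intron. No seed is shared among these miRNAs or with those in DGCR8 and DICER1.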

How the data were processed

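RNA from 3 libraries was analysed. The authors deposited raw, unnormalised counts of each gene, in a separate table for every library. STAR 2.6.1c and GRCh38 are named for alignment in the submitters' processing notes. Per the file headers, featureCounts 1.6.0 summed reads over exons of the GENCODE annotation, version 32. No strand option appears in its command, so overlapping and antisense genes cannot be told apart by strand, and by default reads in several genes or places were left out. In 27622 genes at least 1 read was counted.

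Both YES1 hairpins, as 2 samples, were compared with shGFP by edgeR 4.0.16 in R 4.3.3 (TMM, filterByExpr, robust quasi-likelihood F test, two-sided, Benjamini-Hochberg over 15708 genes), tested on simulated data. The lone shGFP library was taken to vary like the hairpin libraries. CPM used TMM-scaled library sizes. Alternatives used DESeq2 1.42.0, limma-voom 3.58.1, other filters and other scalings. Single libraries were compared without a test. Of the other pathway genes, the text names those past the test, up to 4 per list with the largest smaller fold on the same side with both hairpins, and the gene of highest level per kilobase; some values under this rule and for the marker lists are not reported here. No search for genes of like pattern was made with 3 libraries. The members and lists were chosen with earlier results of these data known.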

Additional observations from a re-analysis of the deposited data

How the results depend on the processing

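In the test of both hairpins against shGFP, no member changed its direction or its side of the threshold: in 60 refits of the 10 members (DESeq2 size factors, library totals, no filter on low counts, a mean of 5 CPM or more, DESeq2, limma-voom) their log2 folds kept their sign, and the lowest adjusted p was 0.916. In the same settings 0 members passed. Between single libraries, AGO4 turned its direction against shGFP: with sh490 by library totals (0.02) and by totals without mitochondrial and globin genes (0.01), and with sh1362 by the last of these (0.000196). Over all genes 4 passed in the edgeR fit, 58 without a filter on low counts and 2 with limma-voom. Ranking by CPM without length left 1 member at its place in sh490, 1 in sh1362 and 4 in shGFP, so the order of levels depends on the length used. Without either hairpin library no residual degree of freedom remains and there is no test; AGO2 then has log2 folds of -0.92 (sh1362 alone) and 0.32 (sh490 alone), on opposite sides of shGFP. The shGFP library could not be left out. No paired analysis was possible because the labels give no shared replicate numbers. Depth limits DGCR8 and TARBP2 most, with 81 and 107 counts in shGFP.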

Other observations

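Genes beside the Argonautes were read after the AGO2 values had been seen, taking the 3 nearest genes averaging at least 5 CPM on either side. Around AGO2, the log2 folds of sh1362 over shGFP were 0.15 for KCNK9, -0.52 for TRAPPC9, 0.64 for CHRAC1, -0.02 for PTK2, -0.98 for DENND3 and 0.52 for SLC45A4. With sh490 these genes had -0.68, -0.16, 0.19, -0.07, 0.17 and 0.22. PTK2, whose annotated start comes next after AGO2, encodes focal adhesion kinase and had 2549 counts in sh490 and 2449 in sh1362, against 1632 in shGFP. DENND3 had 210 and 87 counts, against 114, and lay 2.25 times apart between sh490 and sh1362 (1.74 to 2.92), in the same direction as AGO2. At least 2-fold apart between these libraries were 5.9% of all genes. TRAPPC9 also lay higher in sh490 than in sh1362, at a log2 fold of 0.36. The rest lay lower or nearly level, at -0.83 for KCNK9, -0.45 for CHRAC1, -0.31 for SLC45A4 and -0.04 for PTK2. Around AGO1, AGO3 and AGO4 the checkpoint gene CLSPN had 460 and 288 counts, against 354, with log2 folds of -0.33 and -0.90, and PSMB2, C1orf216, ADPRS, TRAPPC3 and MAP7D1 lay between -0.11 and 0.27 with sh490 and between -0.29 and -0.05 with sh1362.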
